A study of Homo sapiens with 9 samples.

Results

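Windows around 7 loci of genes that define red blood cells and platelets were examined for γH2AX in K562, a human leukaemia cell line that can be pushed towards either lineage. γH2AX is the histone H2AX phosphorylated in chromatin around DNA breaks and stalled replication forks, and chromatin carrying it was immunoprecipitated and sequenced (ChIP-seq). The 9 genes HBZ, HBA1, HBB, HBE1, ITGA2B, ITGB3, FLI1, RUNX1 and TAL1 fall into 7 windows, since HBZ to HBA1 and HBB to HBE1 were each taken as 1 span. Each window is the gene span in the hg19 build with 50 kb added on both sides, and together the windows measure 1249.81 kb. A region belonged to a window when it overlapped it by at least 1 bp, which gave 451 of the 234983 regions called in the 8 γH2AX libraries. The values are covered lengths, that is the number of base pairs of a window that lie inside called regions.

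The libraries formed 4 groups of 2: FANCL knockout cells given 5 nM PMA, wild-type cells given 5 nM PMA, mock-treated FANCL knockout cells, and mock-treated wild-type cells, all over 72 h. These groups are called KO PMA, WT PMA, KO mock and WT mock. FANCL is the ubiquitin ligase of the Fanconi anaemia pathway, which repairs DNA crosslinks, and PMA is a phorbol ester that drives K562 cells towards the megakaryocyte lineage. The stated purpose of the series is to examine what loss of FANCL does to DNA repair and to blood cell differentiation. Whether the KO cells are 1 clone, and whether the 2 libraries of a group came from separate cultures, is not given in the labels, so the p-values measure the spread between libraries, which may be technical. FANCL itself and marker expression were not measured in region lists, so the genotype and the response to PMA rest on the labels.

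The α-globin cluster holds the embryonic gene HBZ and the adult genes HBA2 and HBA1, and its main enhancers lie in the gene NPRL3 ahead of HBZ. The β-globin cluster runs from the embryonic HBE1 through the fetal HBG2 and HBG1 to the adult HBD and HBB. ITGA2B and ITGB3 encode the αIIb and β3 chains of the platelet fibrinogen receptor, and ITGA2B is an early marker of the megakaryocyte lineage. TAL1 is a transcription factor that works with GATA1 in both lineages, RUNX1 is a transcription factor needed for megakaryocyte maturation, and FLI1 is an ETS factor of the megakaryocyte lineage.

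Depth ran from 15.6 to 27.2 M (mega) tags per library. The share of tags that the caller placed in regions, given in the file headers as its estimate of immunoprecipitation efficiency, was 7.96% and 6.69% in KO PMA, 4.69% and 4.24% in WT PMA, 3.42% and 3.67% in KO mock, and 1.55% and 1.39% in WT mock. These shares do not overlap between any of the groups. A stronger immunoprecipitation, more γH2AX per cell and more cells with γH2AX cannot be told apart with these files. The 1 input library, from WT mock cells, served as background for all 8, so copy number changes in KO or PMA-treated cells were not corrected for.

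The RefSeq table of promoters, on the GRCh38.p14 assembly, matched 3 of the 9 genes, namely ITGA2B, RUNX1 and TAL1. Promoters of ITGA2B and RUNX1 are shown because these loci moved in opposite directions between KO PMA and WT PMA, as described further on. Each runs from 250 bases before to 50 bases after the annotated start, 5′ to 3′ on the minus strand, with GATA motifs in capitals.
ITGA2B, chr17:44389600-44389899: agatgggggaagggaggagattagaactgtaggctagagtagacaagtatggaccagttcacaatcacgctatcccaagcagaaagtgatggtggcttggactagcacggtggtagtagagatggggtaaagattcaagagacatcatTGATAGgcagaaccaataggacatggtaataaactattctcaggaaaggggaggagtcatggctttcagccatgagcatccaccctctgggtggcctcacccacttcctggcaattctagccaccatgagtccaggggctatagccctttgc
RUNX1, chr21:34888650-34888949: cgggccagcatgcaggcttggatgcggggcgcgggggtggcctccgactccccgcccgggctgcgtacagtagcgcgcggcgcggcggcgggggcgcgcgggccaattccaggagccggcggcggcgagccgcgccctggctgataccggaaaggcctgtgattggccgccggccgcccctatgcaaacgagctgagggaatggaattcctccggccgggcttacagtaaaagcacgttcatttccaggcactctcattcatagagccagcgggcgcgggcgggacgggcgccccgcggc

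The ITGA2B promoter had a GC content of 49.7% and 2 CpG dinucleotides, the RUNX1 promoter 72.0% and 40, and the TAL1 promoter 64.3% and 30. The medians over 35116 promoters in the same table were 58.7% and 14. A GATA motif (GATA with A or T before it and A or G after it, on either strand) occurred once in the ITGA2B promoter, at position -102 from the start, once in the TAL1 promoter, at -35, and not in the RUNX1 window. It occurred in 25.0% of all promoters in the table. An ETS motif (GGAA with A or C before it and A or G after it, on either strand) occurred 2 times at ITGA2B, once at RUNX1 and not at TAL1, against 65.3% of all promoters. RUNX1 has a pair of promoters far apart, and the start in the table lies 160603 bp inside the gene.

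Across the 7 windows, γH2AX covered most sequence in KO PMA cells and least in WT mock cells, and the loci did not move as a block. The α-globin, ITGA2B and ITGB3 windows held more γH2AX in KO PMA than in WT PMA, and RUNX1 held less. The windows together had 95.6 and 77.8 kb covered in KO PMA cells, 55.8 and 47.1 kb in WT PMA cells, 24.9 and 22.2 kb in KO mock, and 17.9 and 9.75 kb in WT mock. This was 7.65% and 6.23% of their length in KO PMA, 4.47% and 3.77% in WT PMA, 1.99% and 1.78% in KO mock, and 1.43% and 0.780% in WT mock. Over chromosomes 1 to 22 and X, the covered share was 1.401% and 1.14% in KO PMA, 1.03% and 0.817% in WT PMA, 0.567% and 0.570% in KO mock, and 0.317% and 0.270% in WT mock. On log2(summed bp + 1000), KO minus WT was 0.76 on average within treatment, and PMA minus mock 1.85 on average within genotype. The windows thus had a higher covered share than the chromosomes as a whole in all 8 libraries. In the plot of covered length by library, α-globin is the longest-covered window in KO PMA and RUNX1 in WT PMA.

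**Figure D1:**
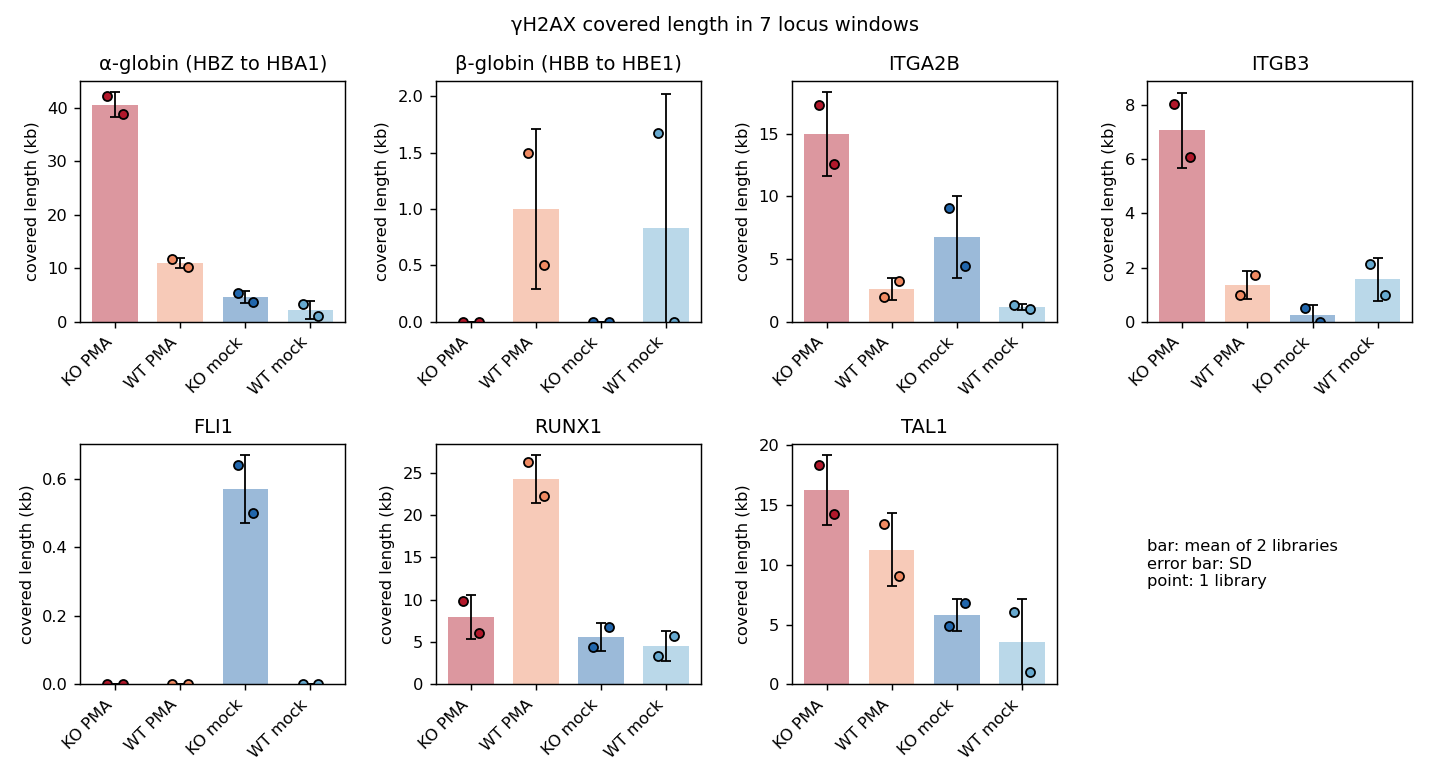
Covered length (kb) of each of the 7 locus windows in KO PMA, WT PMA, KO mock and WT mock. Bars are means of 2 libraries, error bars are SD and points are libraries; each panel has its own axis. At α-globin both KO PMA libraries lie above 38 kb and no other library exceeds 11.7 kb, while at RUNX1 the 2 WT PMA libraries are the highest.

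Each comparison was tested with limma on log2(covered bp per 100 kb + 1000), in 1 fit over the 7 windows and all other 100 kb bins covered in at least 2 of the 8 libraries, 9543 features in all. A locus or bin was called when its Benjamini-Hochberg adjusted p over all features was under 0.05. Differences are on that log2 scale, which understates changes of little-covered windows. All 7 windows passed the filter. FLI1 passed it through the KO mock libraries alone, and no region was called there in the other 6. It therefore had to differ from them, so the counts and medians of loci given here leave it out, a choice made after seeing the data.

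Between KO PMA and WT PMA, 4 of the other 6 loci were called, 3 higher and 1 lower, where 37.8% of all features were called, 15.9% higher and 22% lower. The median difference was 1.03 over the 6 loci and -0.21 over all features. Between KO mock and WT mock, 1 locus was called, ITGA2B, higher, where 20.9% of all features were called, 17.2% higher and 3.62% lower. The medians were 0.49 for the 6 loci and 0.29 for all features. Between KO PMA and KO mock, 2 loci were called, both higher, against 18.5% of all features, 13.1% higher and 5.35% lower, with medians of 1.19 and 0.21. Between WT PMA and WT mock, 2 loci were called, both higher, against 34.3% of all features, 32% higher and 2.32% lower, with medians of 1.15 and 0.66. In WT cells the share of loci called after PMA was near the share of all features. These comparisons share libraries: each group enters a pair of them.

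**Figure D2:**
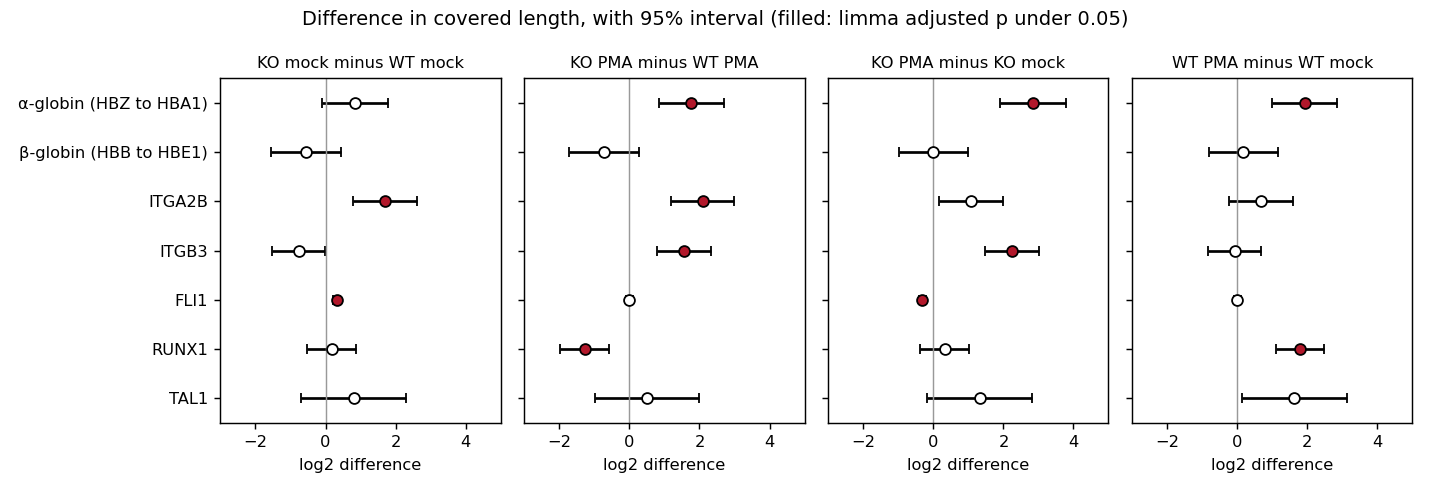
Difference in log2(covered bp per 100 kb + 1000) at each locus (rows) in 4 comparisons (panels), first-named group minus the second, with 95% limma intervals. Filled points have a limma adjusted p under 0.05: α-globin is filled in 3 of the 4 panels, and RUNX1 is the only locus filled on the negative side for KO PMA minus WT PMA. FLI1 is filled through its 2 KO mock libraries alone.

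The α-globin window, chr16:152854-277521, carried the most γH2AX of the 7 in KO PMA cells. There, 42.1 and 38.9 kb were covered in KO PMA cells, 11.7 and 10.3 kb in WT PMA cells, 5.42 and 3.77 kb in KO mock, and 3.41 and 1 kb in WT mock. The 4 groups did not overlap, and KO mock lay above WT mock by a small margin with these flanks of 50 kb. With PMA, KO cells averaged 40.5 ± 2.31 kb and WT cells 10.996 ± 0.987 kb (SD, n = 2 each). The difference of 1.77 ± 0.37 (SE) had a limma adjusted p of 0.0174. PMA-treated KO cells were higher than mock-treated KO cells by 2.85 ± 0.37, with a limma adjusted p of 0.00846, and PMA-treated WT cells higher than mock-treated WT cells by 1.92 ± 0.37, with a limma adjusted p of 0.0156. The KO minus WT difference in mock cells was 0.84 (limma adjusted p = 0.201), and the PMA response of KO minus that of WT was 0.93 (limma adjusted p = 0.281). Neither was called.

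The α-globin calls rest on few libraries. Without any single PMA library the KO PMA minus WT PMA difference stayed between 1.69 and 1.85 and was no longer called, with limma adjusted p from 0.0702 to 0.0842. Nor was it called with a constant of 100 bp. With only regions at least 6-fold over input it was 0.84 (limma adjusted p = 0.0434), and in KO cells PMA minus mock was 0.99 and not called (limma adjusted p = 0.0637). The WT response to PMA was lost without WT PMA 1 (1.84, limma adjusted p = 0.0793) and without WT PMA 2 (2.001, limma adjusted p = 0.0556), and the KO response without KO mock 2 (2.65, limma adjusted p = 0.0587) and without KO PMA 1 (2.80, limma adjusted p = 0.0631). In mock cells the KO minus WT difference became a call without WT mock 1 (1.36, limma adjusted p = 0.0421).

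Where in the window the γH2AX lay differed between the genotypes. The span from HBZ to HBA1 was covered to 37.0% and 37.8% in KO PMA, 2.03% and 0% in WT PMA, 7.15% and 4.05% in KO mock, and 9.75% and 2.03% in WT mock. In KO PMA this span was covered to about the same degree as its flanks, whereas in WT PMA the called length lay almost wholly outside it. Coverage was uneven within the span. The last of 4 equal parts of it, which ends with HBA1, had 0 and 0.568 kb covered in KO PMA. The share of the span is therefore not the share of each globin gene. The flank ahead of HBZ, towards NPRL3, was covered to 34.3% and 24.1% in KO PMA and to 10.3% and 9.46% in WT PMA. The flank beyond HBA1, towards HBQ1 and LUC7L, was covered to 31.7% and 35.0% in KO PMA and to 12.1% and 11.1% in WT PMA. Over the gene span alone, KO PMA was higher than WT PMA by 4.46 (limma adjusted p = 0.00996). Over that span WT PMA minus WT mock was -1.71 (limma adjusted p = 0.154), so the higher covered length of WT cells after PMA was found in the flanks. HBA1 and HBA2 are near-identical copies, and how the authors' alignment divided reads between them is not given in the sources used here.

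**Figure D3:**
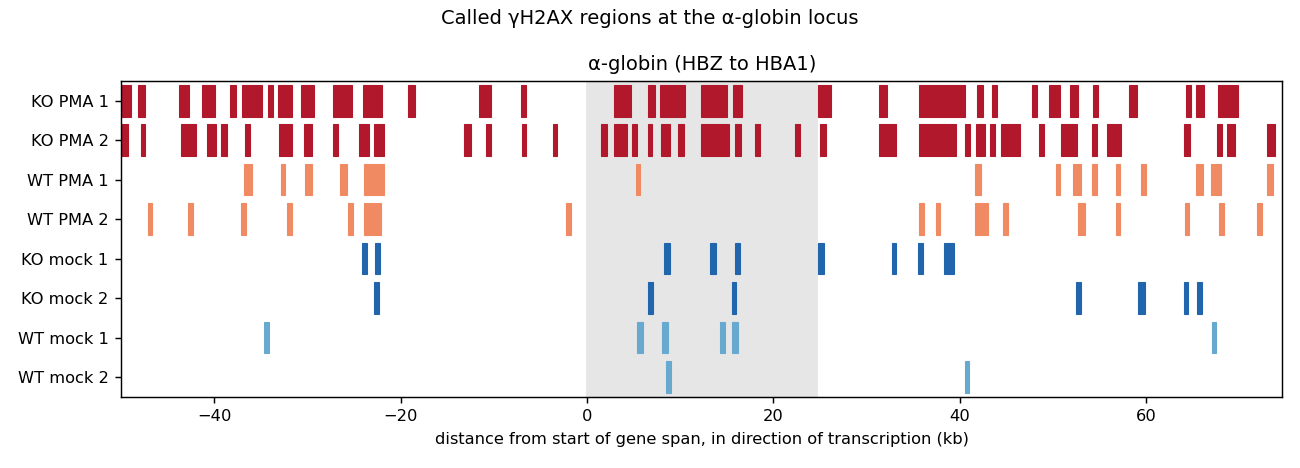
Called γH2AX regions in each of the 8 libraries (rows) across the α-globin window, as distance in kb from the start of HBZ in the direction of transcription; the shaded box is the span from HBZ to HBA1. The 2 KO PMA rows are filled inside the box and on both sides of it, while the 2 WT PMA rows hold 1 region inside the box between them.

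Many of the α-globin regions recurred in the second library of the group. In KO PMA 25 of 32 regions and 29 of 40 regions were shared, in WT PMA 6 of 15 and 6 of 16, in KO mock 2 of 9 and 2 of 7, and in WT mock 1 of 6 and 1 of 2. The longest regions were 6399 and 6115 bp, chr16:147526-153925 in KO PMA 1 and chr16:147414-153529 in KO PMA 2, and they straddle the edge of the window. In the gene span the longest shared pair was chr16:215114-217861 and chr16:215040-218060, with 65.2 and 68.8 normalised tags in KO PMA 1 and 2 and a deposited fold over input of 3.37 and 3.36. One site ahead of HBZ, chr16:178389-181073, was called in both libraries of KO PMA, WT PMA and KO mock and in neither of WT mock. The highest deposited fold, 12.99, was reached by both chr16:208074-208574 and chr16:259606-260106 in WT PMA 1. The regions of KO PMA were thus long and of moderate fold, with medians of 3.89 and 4.13, against 4.38 and 4.38 in WT PMA, 4.96 and 4.77 in KO mock and 5.76 and 6.63 in WT mock.

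Set against all 100 kb bins of its own library, α-globin stood near the top in KO PMA. Its density was 33.8 and 31.2 kb per 100 kb in the KO PMA libraries, where the 99th percentile of bins was 32.1 and 26.0 kb. This was above 99.1% and 99.3% of bins. In WT PMA the density was 9.38 and 8.26 kb per 100 kb, above 97.1% and 97.7% of bins. The window also ranked high in mock cells, above 96.5% and 95.1% of bins in KO mock and 97.8% and 92.8% in WT mock. TAL1 ranked above 97.4% and 97.3% of bins in KO PMA. The input had about as many tags per base in the called α-globin regions as in the called regions of the whole library, with ratios of 0.991 and 0.986 in KO PMA and 1.04 and 1.08 in WT PMA. The bins within 1 Mb were also higher in KO cells: the median KO PMA minus WT PMA difference over 11 bins was 2.75, and 7 of them were called higher and 0 lower. In mock cells the same 11 bins had a median KO minus WT difference of 2.66, with 8 called higher. After PMA the surrounding bins did not follow the locus. Their median was 0.54 in KO cells, with 0 of 11 called higher and 3 called lower, and -0.29 in WT cells, with 0 called higher and 1 lower.

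The β-globin window, chr11:5196696-5341373, was almost free of called γH2AX. No base was covered in either KO PMA or either KO mock library, while 1.5 and 0.5 kb were covered in WT PMA and 1.67 and 0 kb in WT mock. The genotypes overlap only through WT mock 2, which also had none. KO PMA minus WT PMA was -0.73 (limma adjusted p = 0.216) and KO mock minus WT mock was -0.55 (limma adjusted p = 0.441), and no comparison was called. In the span from HBB to HBE1, 1 library had any region, WT mock 1, with 1.12% of the span covered. The highest deposited fold of the window, 24.62, belonged to a 500 bp region in the flank, chr11:5212377-5212877 in WT PMA 1. The 2 globin clusters, both expressed in erythroid cells, therefore differed: α-globin was covered in all 8 libraries and β-globin in 3. HBG1 and HBG2 are near-identical copies too, and a region that no library called is only below each library's threshold.

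ITGA2B held more γH2AX in KO cells than in WT cells under both treatments. In the window chr17:42399548-42516873, 17.3 and 12.6 kb were covered in KO PMA cells, 2 and 3.27 kb in WT PMA cells, 9.05 and 4.47 kb in KO mock, and 1.34 and 1 kb in WT mock. All 4 KO libraries were above all 4 WT libraries. The means were 14.9 ± 3.35 kb in KO PMA, 2.63 ± 0.894 kb in WT PMA, 6.76 ± 3.24 kb in KO mock and 1.17 ± 0.241 kb in WT mock (SD, n = 2 each). KO minus WT was 2.09 ± 0.36 with PMA (limma adjusted p = 0.00954) and 1.70 ± 0.36 in mock cells (limma adjusted p = 0.0278). Over all 8 libraries, with genotype shuffled within treatment, KO was 3.89-fold higher on the scale of covered bp + 1000, with a two-sided exact permutation p of 0.0556, the smallest that 36 labellings allow. PMA minus mock was 1.07 in KO cells (limma adjusted p = 0.105) and 0.68 in WT cells (limma adjusted p = 0.213), and neither was called.

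The ITGA2B calls moved with the threshold and with single libraries. With regions at least 6-fold over input, KO minus WT was 1.04 with PMA (limma adjusted p = 0.140) and -0.13 in mock cells (limma adjusted p = 1). The PMA call was lost without WT PMA 1 (1.84, limma adjusted p = 0.0577) and without KO PMA 1 (1.87, limma adjusted p = 0.0576). The mock call was lost without WT mock 1 (1.81, limma adjusted p = 0.0970), WT mock 2 (1.59, limma adjusted p = 0.114), KO mock 1 (1.27, limma adjusted p = 0.100), KO PMA 1 or KO PMA 2 (1.70 and limma adjusted p = 0.0520 each).

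The gene body of ITGA2B was covered to 28.3% and 21.8% in KO PMA, 0% in both WT PMA libraries, 23.1% and 7.42% in KO mock, and 0% and 2.89% in WT mock. Of the 4 WT libraries, 1 had any called base inside the gene. Over the gene span alone KO PMA exceeded WT PMA by 4.69 (limma adjusted p = 0.00852). In KO PMA 10 of 21 and 10 of 15 regions were shared by the libraries, in KO mock 4 of 9 and 4 of 7, and in WT PMA and WT mock none of 4, 5, 2 and 2. One site inside the gene was called in all 4 KO libraries, at chr17:42460771-42462321 in KO PMA 1 and chr17:42460980-42462288 in KO mock 1. A further site 3′ of the gene, chr17:42428198-42431181, was called in all 4 KO libraries and in 1 WT PMA library. The highest deposited fold was 9.59, at chr17:42435649-42436864 in KO PMA 2. In KO PMA 1 a region of 860 bp, chr17:42466506-42467366, lay over the gene start, whose promoter is printed above. That region was chosen after its values were seen, and no other library had one there.

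GRN, FAM171A2 and GPATCH8 are the nearest genes to ITGA2B. The bins within 1 Mb of its window, none of which touch the window, moved with the locus. Over 20 bins within 1 Mb the median KO PMA minus WT PMA difference was 2.12, with 16 called higher and 0 lower, and the median KO mock minus WT mock difference was 1.33, with 9 called higher. Over all 471 tested bins of chromosome 17 the medians were 0.47 with PMA and 0.61 in mock cells.

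ITGB3, the partner of ITGA2B in the receptor, was covered mainly in KO PMA cells. In the window chr17:45281208-45440077, 8.05 and 6.09 kb were covered in KO PMA cells, 1 and 1.73 kb in WT PMA cells, 0.5 and 0 kb in KO mock, and 2.13 and 1 kb in WT mock. The KO PMA libraries were above all 6 others, and those 6 stayed at or below 2.13 kb. KO PMA exceeded WT PMA by 1.55 ± 0.30 (limma adjusted p = 0.0139) and KO mock by 2.24 ± 0.30 (limma adjusted p = 0.00946). WT PMA minus WT mock was -0.08 (limma adjusted p = 0.931) and KO mock minus WT mock -0.77 (limma adjusted p = 0.153). The PMA response was larger in KO than in WT by 2.32 ± 0.43 (limma adjusted p = 0.0263). That difference of responses was called at ITGB3 alone of the 6 loci without FLI1, where 16.5% of all features were called, 3.79% higher and 12.7% lower.

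The ITGB3 difference of responses was lost without any 1 of the 8 libraries, at 2.06 to 2.58 with limma adjusted p of 0.0501 to 0.0827. Without KO PMA 1, KO PMA minus WT PMA was 1.39 (limma adjusted p = 0.0685) and KO PMA minus KO mock 2.08 (limma adjusted p = 0.0619). Without WT PMA 1 the first was 1.37 (limma adjusted p = 0.0692), and without KO mock 2 the second was 2.04 (limma adjusted p = 0.0582). The first was also not called with a constant of 100 bp. With regions at least 6-fold over input the 3 differences were 0.35, 0.82 and 0.55, and none was called (limma adjusted p = 0.491, 0.288 and 0.549). The regions at ITGB3 were short and scattered. In KO PMA 2 of 12 and 2 of 10 were shared, at chr17:45361670-45362170 and chr17:45373058-45373811 in KO PMA 1, both inside the gene. No region was shared between the libraries of WT PMA, KO mock or WT mock. In KO PMA 1 the region chr17:45330941-45331660, chosen after its values were seen, lay over the gene start. The highest deposited fold, 28.51, was at chr17:45288871-45289371 in KO PMA 1. The bins within 1 Mb of ITGB3 had a median KO PMA minus WT PMA difference of 1.05, with 6 of 16 called higher. Their median KO PMA minus KO mock difference was also 1.05, with 5 called higher. Their median difference of responses was 0.82, with 1 called higher and 0 lower.

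**Figure D4:**
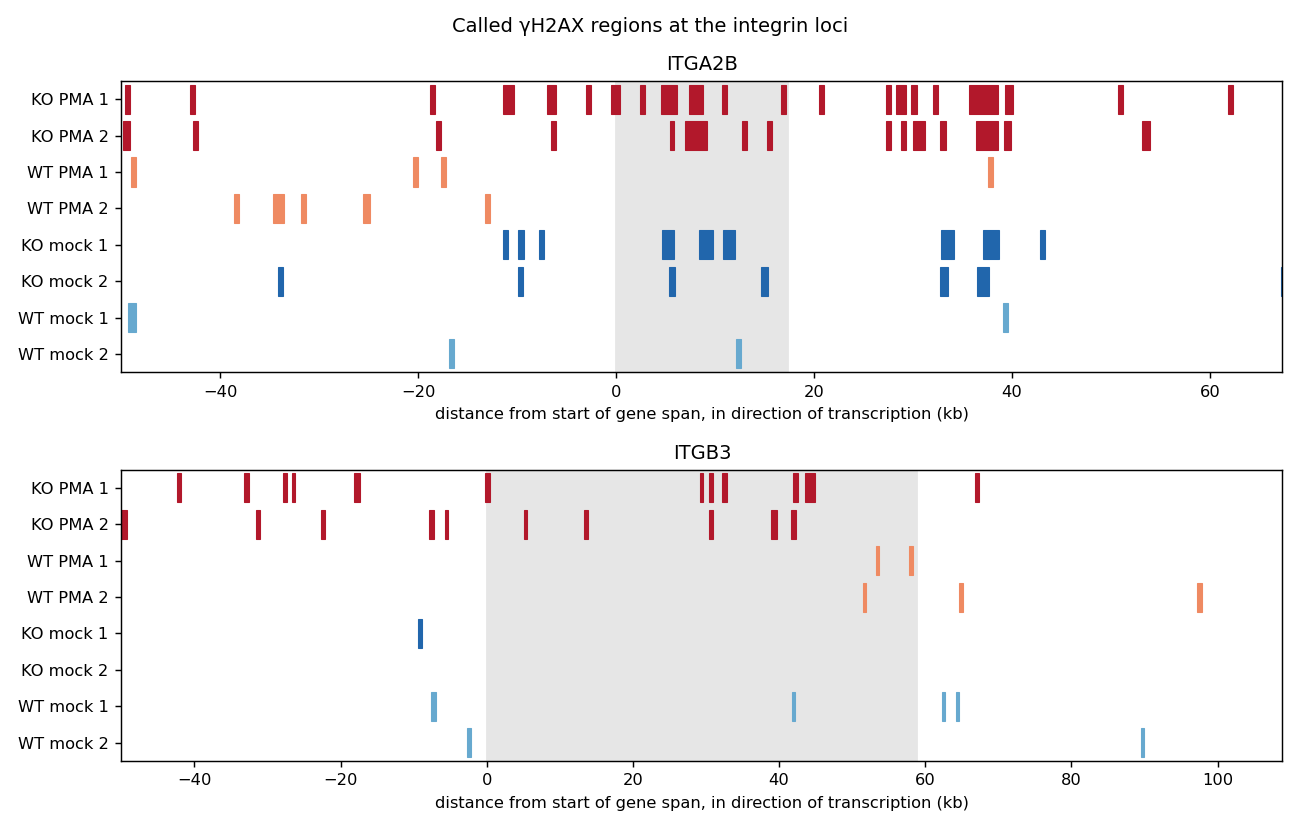
Called γH2AX regions in each of the 8 libraries (rows) across the ITGA2B (upper panel) and ITGB3 (lower panel) windows, as distance in kb from the gene start in the direction of transcription; shaded boxes are the genes. At ITGA2B the 4 KO rows hold regions in the gene and about 30 to 40 kb from its start and the WT rows hold few, whereas at ITGB3 the KO PMA rows alone hold 10 or more regions.

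FLI1 held 2 called regions in all. In a window of 226.732 kb, chr11:128506430-128733162, 0 bp were covered in both KO PMA and both WT PMA libraries, 640 and 500 bp in KO mock, and 0 bp in both WT mock libraries. KO mock was thus the one group with any called base. There was 1 region in each KO mock library, chr11:128680163-128680803 at the end of the gene and chr11:128730844-128731344 beyond it, at different places and with a deposited fold of 3.97 and 3.87. KO mock minus WT mock was 0.32, KO PMA minus KO mock -0.32 and the difference of responses -0.32. Their limma tests are not used, since FLI1 entered the fit only through the group in which it is covered. With libraries centred on their medians the 3 values were 0.03, -0.38 and 0.40. At KO mock, the FLI1 density of 0.282 and 0.221 kb per 100 kb was above 78.6% and 79.2% of bins, of which 78.5% and 79.2% had no coverage at all.

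RUNX1 was the one locus called lower in KO PMA than in WT PMA. In the window chr21:36110098-36471595, 9.81 and 6.10 kb were covered in KO PMA cells, 26.2 and 22.3 kb in WT PMA cells, 4.43 and 6.72 kb in KO mock, and 3.30 and 5.75 kb in WT mock. The WT PMA libraries were above all 6 others, and the mock groups overlapped. KO PMA averaged 7.95 ± 2.63 kb and WT PMA 24.3 ± 2.80 kb (SD, n = 2 each), a difference of -1.28 ± 0.28 (limma adjusted p = 0.0185). WT PMA exceeded WT mock by 1.79 ± 0.28 (limma adjusted p = 0.00857), while KO PMA minus KO mock was 0.32 (limma adjusted p = 0.512). The difference of these responses, -1.46, was not called (limma adjusted p = 0.0627). It was called with a constant of 5000 bp, with regions of at least 1000 bp and with 1 tag threshold for all libraries, at -0.77, -2.26 and -1.62 (limma adjusted p = 0.0326, 0.0135 and 0.0287).

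The RUNX1 calls did not hold for the most enriched regions. With regions at least 6-fold over input, KO PMA minus WT PMA was 0.14 (limma adjusted p = 0.856) and WT PMA minus WT mock -0.05 (limma adjusted p = 1). With libraries centred on their medians the values were -0.86 (limma adjusted p = 0.172) and 1.01 (limma adjusted p = 0.114). The genotype call was lost without WT PMA 1 (-1.18, limma adjusted p = 0.0911), WT PMA 2 (-1.39, limma adjusted p = 0.0520) and KO PMA 2 (-1.05, limma adjusted p = 0.0800), and the WT response without WT PMA 1 (1.69, limma adjusted p = 0.0515). The genotype call was also lost with a constant of 100 bp.

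The RUNX1 window, 361.497 kb long, is the longest of the 7, and its γH2AX lay inside the gene. The flanks had at most 1% covered in any library. In WT PMA 80.1% and 84.1% of the covered gene length lay downstream of the midpoint of the gene, 71.4% and 67.2% in KO PMA, 72.3% and 100% in KO mock, and 59.8% and 51.6% in WT mock. KO mock 2, with all of its covered gene length there, exceeded both WT PMA libraries. In WT PMA 13 of 30 and 14 of 31 regions were shared between the libraries, and all but 2 of the shared sites lay there too. In KO PMA 1 of 18 and 1 of 11 were shared, at chr21:36249768-36250268 in KO PMA 1. The longest shared pair of WT PMA was chr21:36210025-36212898 and chr21:36210490-36211895, with 46.3 and 25.3 normalised tags. The merged site around it, chr21:36210025-36214651, was called in both libraries of KO PMA, WT PMA and KO mock, and the site chr21:36231673-36234173 was called in 6 libraries, with both of WT mock among them. Merged sites can join regions that meet only through those of another library: the KO PMA regions of the first site do not overlap each other, nor do the WT mock regions of the second. The highest deposited fold was 18.62, at chr21:36281274-36281774 in WT PMA 2. The bins within 1 Mb had a median KO PMA minus WT PMA difference of -0.19, with 2 of 14 called lower and 0 higher. Over all 142 tested bins of the same chromosome that median was -0.39, with 30 called lower and 12 higher. The difference of responses, -1.46 at RUNX1, had a median of -1.08 in the 14 near bins, with 3 called lower and 0 higher. Over the 142 bins its median was -0.95, with 29 called lower and 0 higher. A lower median response in KO cells was therefore also found around the locus and along its chromosome. It was not particular to them: over all 9543 features the median was -0.54, with 1210 called lower and 362 higher.

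TAL1 had more covered length in PMA-treated than in mock-treated cells in both genotypes, but its libraries varied too much for a call. In the window chr1:47631962-47748007, 18.3 and 14.2 kb were covered in KO PMA cells, 13.4 and 9.07 kb in WT PMA cells, 4.87 and 6.78 kb in KO mock, and 6.08 and 1 kb in WT mock. All 4 PMA libraries lay above all 4 mock libraries, and the KO PMA libraries above the WT PMA ones. PMA minus mock was 1.32 ± 0.59 in KO cells (limma adjusted p = 0.206) and 1.62 ± 0.59 in WT cells (limma adjusted p = 0.0887). Shuffled within genotype, the two-sided exact permutation p of the treatment was 0.0556, the smallest possible, at a 2.85-fold higher covered bp + 1000. KO minus WT was 0.50 with PMA (95% interval -0.99 to 1.997) and 0.81 in mock cells (95% interval -0.69 to 2.30). Over the gene span alone, WT PMA exceeded WT mock by 3.47 (limma adjusted p = 0.0254) and KO mock exceeded WT mock by 3.30 (limma adjusted p = 0.0419). The response of WT cells also became a call without WT mock 1 (2.50, limma adjusted p = 0.0185), and that of KO cells without WT mock 1 or WT mock 2 (1.32 each, limma adjusted p = 0.0489 and 0.0486).

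The TAL1 gene itself was covered to 42.8% and 22.9% in KO PMA, 19.2% and 24.1% in WT PMA, 11.8% and 30.0% in KO mock, and 3.12% and 0% in WT mock. Much of this was 1 site, chr1:47685420-47689054, called in both libraries of KO PMA, WT PMA and KO mock and in neither of WT mock. In KO PMA it was a region of 3634 bp with 78.9 normalised tags and one of 2909 bp with 57.5. In WT PMA 1 it was a region of 820 bp, of 3.087 kb covered in the gene. A longer region of 2267 bp in that library lay in another site, chr1:47681635-47684271. That site was called in 5 libraries, WT mock 1 among them. The 5′ part of the gene was bare: the first of 4 equal parts of the gene, with its start, had 0 kb covered in all 8 libraries. In KO PMA 8 of 21 and 8 of 20 regions were shared, in WT PMA 3 of 16 and 4 of 12, in KO mock 4 of 8 and 3 of 6, and in WT mock none of 11 and 2. The highest deposited fold was 31.30, at chr1:47671659-47672159 in KO mock 1. The 16 bins within 1 Mb, none of which touch the window, had a median of -0.15 for KO PMA minus KO mock and 0.04 for WT PMA minus WT mock. In each comparison 3 were called higher, and 2 were called lower in the first and 1 in the second.

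**Figure D5:**
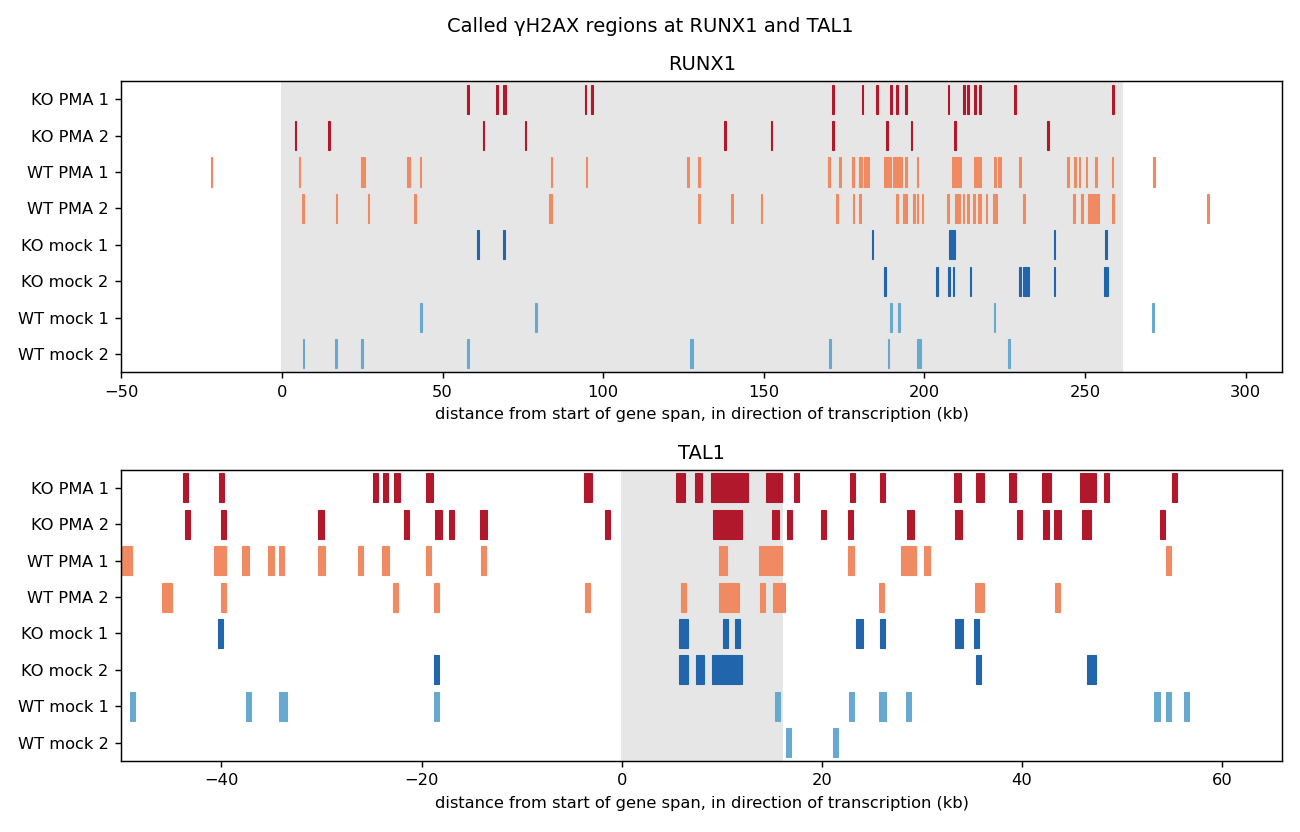
Called γH2AX regions in each of the 8 libraries (rows) across the RUNX1 (upper panel) and TAL1 (lower panel) windows, as distance in kb from the gene start in the direction of transcription; shaded boxes are the genes. At RUNX1 the WT PMA rows are densest downstream of the midpoint of the gene, and at TAL1 a site past the midpoint is filled in 6 of the 8 rows, those of KO PMA, WT PMA and KO mock.

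In the order of covered share, the KO PMA libraries ran α-globin, TAL1, ITGA2B, ITGB3, RUNX1 and then β-globin and FLI1 at 0. The shares of TAL1, 15.8% and 12.2%, overlap those of ITGA2B, 14.8% and 10.7%, and the other neighbours in that order do not overlap. The WT PMA libraries ran TAL1, α-globin, RUNX1, ITGA2B, ITGB3, β-globin and FLI1. There, TAL1 at 11.5% and 7.82% overlaps α-globin at 9.38% and 8.26%, and ITGB3 at 0.629% and 1.09% overlaps β-globin at 1.04% and 0.346%. Over all libraries, the called regions of each locus merged into 47 sites at α-globin, 71 at RUNX1, 45 at TAL1, 38 at ITGA2B, 29 at ITGB3, 6 at β-globin and 2 at FLI1. Of these, 12 sites at α-globin, 8 at TAL1, 3 at ITGA2B and 3 at RUNX1 were called in 4 or more libraries, and none at ITGB3, β-globin or FLI1. At ITGB3 25 of 29 sites were called in a single library, against 14 of 47 at α-globin.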

How the data were processed

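K562 γH2AX ChIP-seq libraries (8, with 1 input from WT mock cells as background for all of them) were analysed from the region lists that the authors deposited. Per the submitters' processing notes, CASAVA 1.4, BWA, HOMER and hg19 were used. Regions come, per the file headers, from a separate call by the authors in each library, on 500 bp windows that passed a tag threshold set by that library's depth (5.89 to 7.69 tags per 10 M tags), at least 2-fold over the input. The deposited signal of a region is its tag number normalised by the authors to 10 M tags. The deposited tag count and input signal were used for the input density. The deposited fold is the authors' ratio of tags to input tags. The deposited score is HOMER's own and was used to rank regions within a library. Each deposited p-value is the authors' HOMER p for 1 region, and none is printed here.

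Covered length was the number of bp inside merged called regions, clipped to each window. Windows were tested with limma 3.58.1 (R 4.3.3, mean-variance trend, two-sided) in 1 fit of 4 groups and 8 libraries, together with all 100 kb bins of chromosomes 1 to 22 and X outside the windows, 9543 features covered in at least 2 libraries, with Benjamini-Hochberg adjustment over all of them. The fit was also run on simulated lengths, with normal noise around a mean shared by all groups and changes set in KO mock only. That setting differs from these libraries, whose totals differ between groups, so it is not used as support here. Exact permutation tests shuffled 1 factor within the other (36 labellings, smallest p 0.0556). With 2 libraries against 2 the smallest exact p is 0.333. All 7 windows are reported, called or not. Single regions are named when both libraries of a group hold them or when they have the highest deposited fold of a locus, and exceptions are stated. A merged site joins overlapping regions of all libraries. Genes of the same programmes outside the windows were not analysed here, since gene positions on hg19 were given for the 9 members only. Neighbouring genes were named from RefSeq on GRCh38.p14, and no coordinates were moved between builds. The members and lists were chosen with earlier results of these data known. Other steps used Python 3.11.15, numpy 2.4.6, pandas 2.3.3, scipy 1.17.1 and matplotlib 3.10.9.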

Additional observations from a re-analysis of the deposited data

Results flagged for a closer look

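The response of covered length to PMA was compared between KO and WT cells by a test of that difference itself. It was called for 16.5% of all features, 3.79% higher and 12.7% lower. Of the 6 loci without FLI1, 1 was called, which is near that share. At ITGB3 the PMA response of KO minus that of WT was 2.32 on the log2 scale (limma adjusted p = 0.0263): KO PMA had 8.05 and 6.09 kb against 0.5 and 0 kb in KO mock, and WT PMA had 1 and 1.73 kb against 2.13 and 1 kb in WT mock. This call was lost in each of the 8 fits that left out 1 library, at 2.06 to 2.58 with limma adjusted p of 0.0501 to 0.0827. At FLI1 the difference was -0.32, with 640 and 500 bp in KO mock and 0 bp in the other 6 libraries. FLI1 entered the fit only through KO mock, so its test is not used, and with libraries centred on their medians its value was 0.40.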

How the results depend on the processing

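With 2 libraries per group, most calls sat near the threshold. The number called over all features also changed without single libraries and with most other settings. A changed count of loci therefore need not be particular to the loci. The counts of loci given here include FLI1, which entered the fit only through KO mock. In comparisons that use KO mock, its calls therefore say nothing about how stable the loci are. Without it 4, 1, 2, 2 and 1 loci were called for KO PMA minus WT PMA, KO mock minus WT mock, KO PMA minus KO mock, WT PMA minus WT mock and the responses, a choice made after seeing the data. Leaving out 1 library, the number of loci called was 0 to 4 for KO PMA minus WT PMA (4 with all), 0 to 2 for KO mock minus WT mock (2), 0 to 4 for KO PMA minus KO mock (3), 0 to 3 for WT PMA minus WT mock (2) and 0 throughout for the difference of PMA responses (2), where 2 to 4 loci had an unadjusted limma p under 0.05. The counts of 0 in the first 4 comparisons came without WT PMA 1 (KO PMA minus WT PMA and WT PMA minus WT mock, with 4 and 2 loci at an unadjusted limma p under 0.05), KO mock 1 (KO mock minus WT mock, with 1) and KO mock 2 (KO PMA minus KO mock, with 2). The summed log2 differences stayed at 0.56 to 0.96 for genotype and 1.65 to 2.06 for treatment. Replicate numbers did not pair the libraries, since deviations of same-numbered libraries correlated at -0.06 to 0.16. With a replicate block, 4, 2, 3, 2 and 2 loci were called in the same 5 comparisons, and counting the whole length of overlapping regions also gave 4, 2, 3, 2 and 2.

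Regions at least 6-fold over input gave the most different picture: 1 locus was called for KO PMA minus WT PMA and 0 in the other 4 comparisons, with 3 at an unadjusted limma p under 0.05 for KO PMA minus KO mock and 0 in the rest. Over all 7246 features with such regions, 361 were called higher and 876 lower for KO PMA minus WT PMA, 155 and 95 for KO mock minus WT mock, 227 and 140 for KO PMA minus KO mock, 1031 and 106 for WT PMA minus WT mock, and 188 and 539 for the responses. The summed differences were then 0.16 for genotype and 1.03 for treatment, RUNX1 turned to 0.14 (KO PMA minus WT PMA), -0.20 (KO mock minus WT mock), -0.055 (WT PMA minus WT mock) and 0.34 (responses), ITGA2B to -0.13 (KO mock minus WT mock), ITGB3 to 0.27 (WT PMA minus WT mock) and TAL1 to 0.041 (responses), and the exact-test genotype difference at RUNX1 to 0.034. Regions of at least 1000 bp gave 0 loci for KO mock minus WT mock (1 at an unadjusted limma p under 0.05) and 1 for KO PMA minus KO mock, summed differences of 1.83 and 2.82, and -0.70 at RUNX1 for KO PMA minus KO mock. Of 3182 features, 522 were called higher and 90 lower in the first comparison, and 992 and 88 in the second. One tag threshold for all libraries gave 4 loci for the responses, where 336 of 7414 features were called higher and 732 lower. It gave a summed genotype difference of 1.44. It turned β-globin to -0.21 (WT PMA minus WT mock), 0.21 (responses) and -0.13 (exact-test treatment), ITGB3 to 0.20 (WT PMA minus WT mock) and RUNX1 to -0.024 (KO PMA minus KO mock). The same number of regions per library (11959) gave 1 locus each for KO mock minus WT mock and WT PMA minus WT mock, which was ITGB3, called lower at -0.74 in each (limma adjusted p = 0.0219 and 0.0264), and 1 higher for the responses, and summed differences of 0.10 and 1.18. It turned α-globin to -0.10 and RUNX1 to -0.33 (KO mock minus WT mock), TAL1 to -0.45 (KO PMA minus WT PMA), RUNX1 to -0.37 (KO PMA minus KO mock), and β-globin to -0.21 and ITGA2B to -0.51 (WT PMA minus WT mock). Under it the responses at β-globin were 0.21, and exact-test values were -0.052 for treatment at ITGA2B, -0.11 for genotype at TAL1 and -0.13 for treatment at β-globin. Of 6097 features, 677 were called higher and 628 lower for KO mock minus WT mock. The counts were 511 and 441 for WT PMA minus WT mock, and 442 and 411 for the responses.

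Centring libraries on their medians gave 1 locus for KO mock minus WT mock, 0 for WT PMA minus WT mock (3 at an unadjusted limma p under 0.05) and 1 for the responses. It turned RUNX1 to -0.11 (KO mock minus WT mock), β-globin to -0.61 and ITGA2B to -0.10 (WT PMA minus WT mock), and the responses to 0.55 at β-globin, 0.40 at FLI1 and 0.42 at TAL1. The gene spans alone gave 1 locus for KO mock minus WT mock, 1 for KO PMA minus KO mock and 0 for the responses (3 at an unadjusted limma p under 0.05), and a summed treatment difference of 1.52. They turned WT PMA minus WT mock to -1.71 at α-globin, -0.98 at ITGA2B and 0.72 at ITGB3, and the exact-test treatment difference at β-globin to -0.15. Flanks of 100 kb gave a summed treatment difference of 1.43 and 0.20 at ITGB3 for WT PMA minus WT mock. They gave 3 loci for KO mock minus WT mock, where 1646 of 9540 features were called higher and 344 lower. At α-globin, 28.8 and 32.8 kb were then covered in KO mock, against 13.1 and 13.0 kb in WT mock. A constant of 100 bp gave 1 locus for KO PMA minus WT PMA and 1 for the responses, and -0.18 for the exact-test genotype difference at ITGB3. The locus called for KO PMA minus WT PMA was ITGA2B, higher, so α-globin, ITGB3 and RUNX1 lost their calls there. Of 9543 features, 1050 were called higher and 1237 lower in that comparison. A constant of 5000 bp gave 1 locus for KO mock minus WT mock and 4 for the responses, with 0.011 at TAL1. Features covered in at least 1 library gave 1 locus for the responses, and those covered in at least 4 gave 1 for KO mock minus WT mock and 1 for the responses. The cause of these changes was not tested.

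Leaving out 1 library also turned differences that were not called. KO mock minus WT mock ran from -0.038 to 0.40 at RUNX1 (-0.00052 without KO mock 2, the lowest without WT mock 1) and from -0.066 (without WT mock 2) to 1.68 at TAL1. WT PMA minus WT mock ran from -0.34 to 0.18 at ITGB3 (0.10 without WT PMA 1, the highest without WT mock 1) and from -0.38 (without WT mock 2) to 0.73 at β-globin (-0.13 without WT PMA 1). The responses ran from -0.042 (without KO mock 2) to 0.81 at ITGA2B, from -1.18 to 0.57 (without WT mock 2) at TAL1 and from -0.73 to 0.38 (without WT mock 2) at β-globin (0.13 without WT PMA 1). The exact-test treatment difference at β-globin ran from -0.23 (without WT mock 2) to 0.48 (-0.062 without WT PMA 1).

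Depth set each library's own tag threshold, from 5.89 to 7.69 tags per 10 M, and a window with no region lies below that threshold and is not shown to be free of γH2AX. The regions of little-covered windows were mostly 500 bp long, the minimum, so 1 region changes such a window.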
